A study of Apis mellifera with 6 samples.

Results

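The genes described here are those with the strongest rise in read number in the midgut of honey bees (Apis mellifera) fed tunicamycin. Members were genes listed under a LOC number, the identifier given to loci with no gene symbol, that met 3 thresholds on the deposited normalized reads. These were a mean of at least 100 over the 6 samples, a lowest tunicamycin value above the highest control value, and a difference of at least 1.5. The difference is log2(mean of the tunicamycin samples + 1) minus log2(mean of the controls + 1). Of 9710 LOC numbers, in tables of 10013 genes, 57 met the rule (0.587%). With the rule turned round, for genes lower in tunicamycin, 4 did (0.0412%). The rule uses the contrast of tunicamycin with control, so the sizes of the members' differences are a description and carry no test.

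The study compared 3 tunicamycin midgut samples (replicates 2, 3 and 4), from bees fed sucrose solution with 24 µM tunicamycin in 0.5% DMSO (dimethyl sulfoxide, the solvent), with 3 controls (replicates 1, 2 and 3), from bees fed 0.5% DMSO without the drug. Feeding lasted 24 hours in both groups, and polyadenylated RNA was sequenced. Its title names the IRE1 pathway of the unfolded protein response. The labels give no age, strain or colony of the bees, and they do not say how many midguts made up a sample or whether replicates came from separate cages. The spread between samples may therefore be technical.

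Tunicamycin blocks the first step of the synthesis of the sugar chain that is attached to asparagines of proteins entering the endoplasmic reticulum (ER). Proteins without that chain fold poorly, and their build-up starts the unfolded protein response. In that response the ER membrane sensors IRE1, PERK and ATF6 set off programmes that raise chaperones, folding enzymes, protein degradation at the ER and amino acid supply. IRE1, the sensor found from yeast to animals, splices the messenger RNA of the transcription factor XBP1. The midgut epithelium of insects secretes digestive enzymes and so passes much protein through the ER. The files and the reference annotation of the assembly Amel_HAv3.1 give the members no product names, so none of them is assigned to these programmes here.

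Between 22763496 and 26278751 reads per sample could be recovered from the deposited values over the listed genes. In a principal component analysis of the log2 values, tunicamycin sample 3 was set apart from its group on the first component, with a score of -6.2 where tunicamycin samples 2 and 4 had -28.6 and -35.8. Control 1 was set apart on the second, with 48.7 where controls 2 and 3 had -21.3 and -14.3. Both samples are named where a result rests on them.

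The 57 differences ran from 1.51 to 5.29 on the log2 scale, with a median of 1.86, while the 7217 LOC numbers with a mean of at least 100 had a median of -0.02. Members thus had a ratio of group means between 2.86 and 39.2. A difference of at least 2 was reached by 25 members, of at least 3 by 9 and of at least 4 by 4. Non-overlapping groups alone were common among the 7217 genes: 862 (11.9%) had every tunicamycin sample above every control, and 912 (12.6%) had every tunicamycin sample below. The asymmetry in the rule, 57 genes against 4, therefore lay in the size of the differences and not in how often the groups separated. The 4 genes that met the rule turned round were LOC107965774, LOC410747, LOC725205 and LOC409518, at differences of -6.46, -1.92, -1.64 and -1.56.

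**Figure D1:**
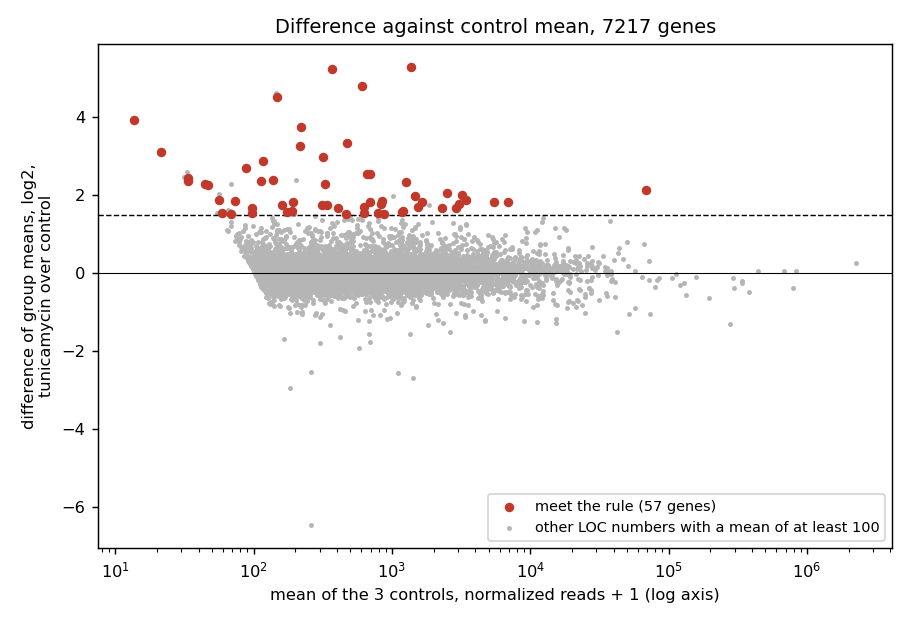
Each point is 1 of 7217 LOC numbers with a mean of at least 100, with the mean of the 3 controls (normalized reads + 1, log axis) on the x axis and the log2 difference of group means, tunicamycin over control, on the y axis. The 57 members (red) lie above the dashed line at 1.5, with control means from 12.6 to 68072 normalized reads. Grey points above the line are genes whose groups overlap.

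Members had control means from 12.6 to 68072 normalized reads, and all but LOC102654271 lay at 6865 or below. The share of the 7217 LOC numbers in each of the ranges that follow was not computed. A control mean under 100 normalized reads was found for 13 members, whose median difference was 2.26. Another 28 had a control mean of 100 to under 1000, with a median difference of 1.84, and 16 had one of at least 1000, also with a median of 1.84. The minimum on the mean over 6 samples favours large differences where the control mean is low, since such a gene passes through its tunicamycin samples alone. The largest difference, that of LOC410087, was in a gene with a control mean of 1371.

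LOC410087 held 34382, 37138 and 89835 normalized reads in tunicamycin samples 2, 3 and 4, against 1753, 1174 and 1185 in controls 1, 2 and 3. The groups were far apart, since the lowest tunicamycin sample stood at 19.6 times the highest control. LOC552832 held 11296, 7886 and 22340 in tunicamycin samples 2, 3 and 4, against 475, 359 and 271 in controls 1, 2 and 3. The differences of these genes were 5.29 and 5.23, and tunicamycin sample 4 was the highest in both. LOC724367 held 9561, 5288 and 36590 in tunicamycin samples 2, 3 and 4, against 478, 664 and 681 in controls 1, 2 and 3, a difference of 4.82. Here tunicamycin sample 4 stood at 4.93 times the mean of the others of its group.

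LOC411188 owed most of its difference to that sample. It held 451, 564 and 9069 normalized reads in tunicamycin samples 2, 3 and 4, against 204, 118 and 115 in controls 1, 2 and 3. Its difference was 4.52, and 1.80 without tunicamycin sample 4, so it still met the threshold on the difference.

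Among members with few reads in controls, LOC552096 held 135, 183 and 302 normalized reads in tunicamycin samples 2, 3 and 4, against 19.998, 13.0 and 4.86 in controls 1, 2 and 3. Its difference was 3.93. LOC102655941 held 338, 111 and 104 in tunicamycin samples 2, 3 and 4, against 16.0, 25.1 and 20.4 in controls 1, 2 and 3. Tunicamycin sample 2 was the high one here, and the difference of 3.11 was 2.33 without it. Counting error weighs on such genes, since the lowest number of recovered reads in a sample was 5 for LOC552096 and 16 for LOC102655941.

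In the next members named, no sample lay more than 3-fold from the nearest other of its group. LOC102654968 held 3887, 2148 and 2854 normalized reads in tunicamycin samples 2, 3 and 4, against 232, 199 and 224 in controls 1, 2 and 3, a difference of 3.76. LOC726827 held 4673, 2471 and 7152 in tunicamycin samples 2, 3 and 4, against 622, 329 and 458 in controls 1, 2 and 3, a difference of 3.34. Both were lowest in tunicamycin sample 3 within their group. LOC552686 held 1833, 1882 and 2563 in tunicamycin samples 2, 3 and 4, against 347, 137 and 162 in controls 1, 2 and 3, a difference of 3.27. LOC102654076, annotated as a long non-coding RNA, held 3086, 1519 and 2977 in tunicamycin samples 2, 3 and 4, against 540, 173 and 241 in controls 1, 2 and 3, a difference of 2.99. Control 1 was the highest control in both of these genes.

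**Figure D2:**
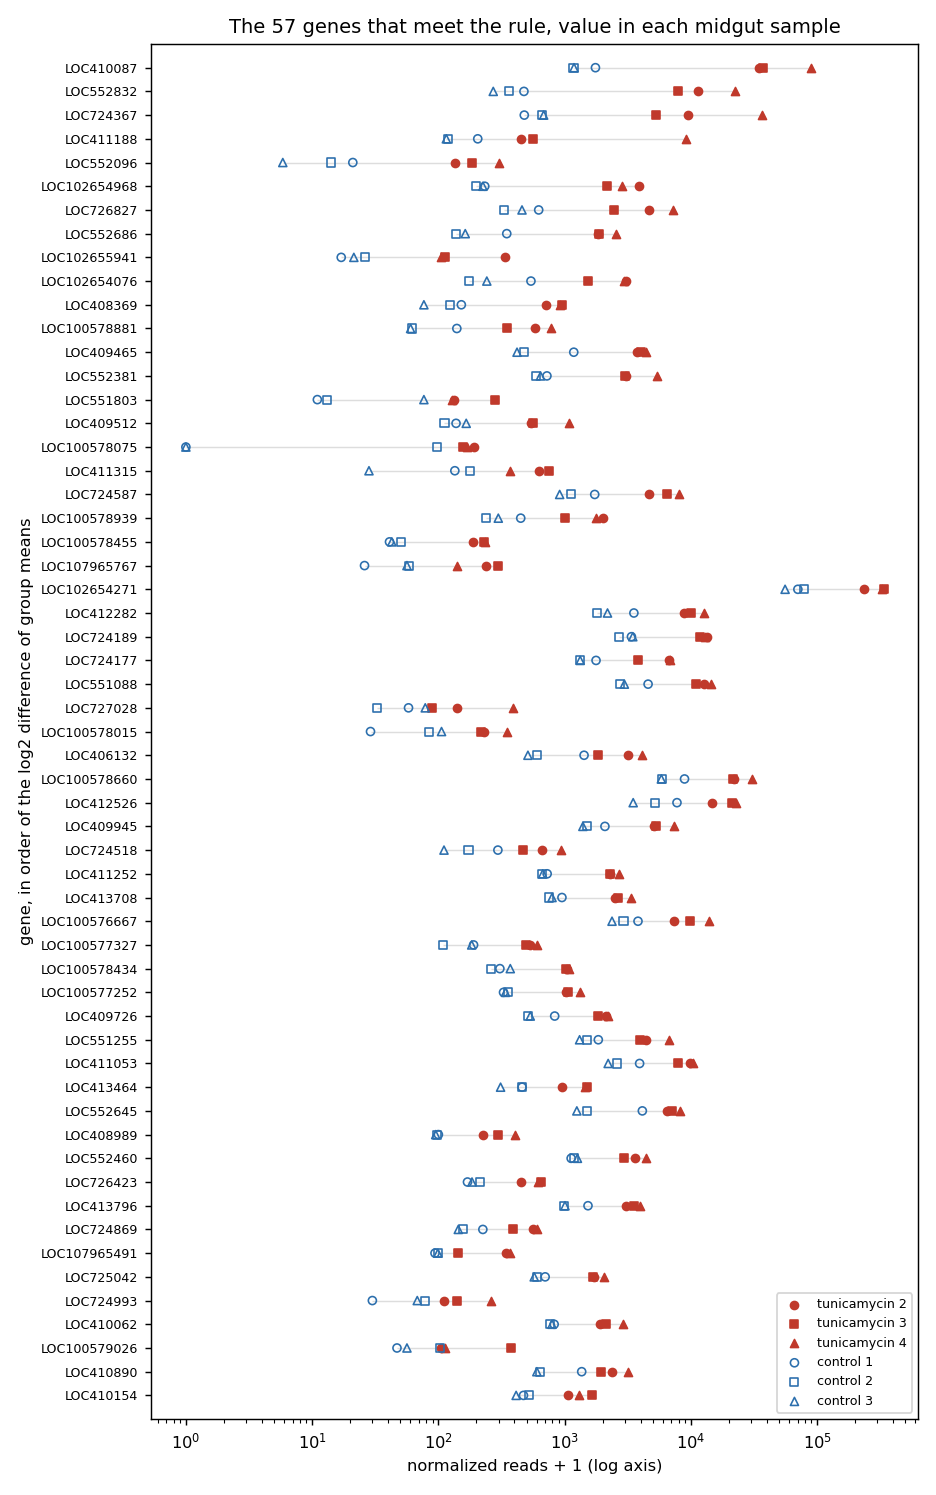
Rows are the 57 members in order of their log2 difference of group means, and the x axis gives normalized reads + 1 (log axis) in each of the 3 tunicamycin samples (filled red) and the 3 controls (open blue). All rows have every red symbol right of every blue one, as the rule requires, with the narrowest gap in LOC100579026 and the widest in LOC410087.

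The members with the most reads in tunicamycin samples were mostly others. These numbers are not divided by gene length, so they rank reads and not levels of RNA. LOC102654271 held 235449, 335770 and 324212 normalized reads in tunicamycin samples 2, 3 and 4, against 70342, 78144 and 55729 in controls 1, 2 and 3, a difference of 2.13. It alone took between 0.949% and 1.43% of all normalized reads of a tunicamycin sample, and between 0.231% and 0.320% of those of a control. All members together made up 1.87%, 2.10% and 3.11% of the reads in tunicamycin samples 2, 3 and 4, against 0.591%, 0.505% and 0.411% in controls 1, 2 and 3. Without LOC102654271 the other members made up 0.918%, 0.833% and 1.68% in tunicamycin samples 2, 3 and 4, against 0.289%, 0.186% and 0.179% in controls 1, 2 and 3.

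LOC100578660 held 21919, 21442 and 30387 normalized reads in tunicamycin samples 2, 3 and 4, against 8902, 5859 and 5834 in controls 1, 2 and 3, a difference of 1.84. LOC412526 held 14667, 21212 and 22684 in tunicamycin samples 2, 3 and 4, against 7756, 5181 and 3489 in controls 1, 2 and 3, a difference of 1.83. Control 1 was the highest control in both and narrowed the distance between the groups. LOC724189 held 13513, 11911 and 12960 in tunicamycin samples 2, 3 and 4, against 3380, 2714 and 3465 in controls 1, 2 and 3, a difference of 2.01. Its samples lay close together in each group, with a highest value 1.13 times the lowest in tunicamycin and 1.28 times in controls. LOC551088 held 12772, 11057 and 14323 in tunicamycin samples 2, 3 and 4, against 4580, 2756 and 2971 in controls 1, 2 and 3, a difference of 1.89. LOC412282 averaged 10518 ± 2075 normalized reads in tunicamycin samples and 2510 ± 906 in controls, and LOC100576667 averaged 10378 ± 3363 in tunicamycin samples and 3035 ± 725 in controls (mean ± SD, n = 3 each).

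Members varied within their groups more than LOC numbers with a mean of at least 100 did as a whole. The rule used these same values, and 1 high tunicamycin sample raises the mean in the difference, so the rule can itself favour spread. The highest tunicamycin value was 1.63 times the lowest in the median member, against 1.26 times over those genes. In controls the medians were 1.62 for 56 members, leaving out LOC100578075 with its controls at 0, and 1.27 over those genes. The tightest member in tunicamycin was LOC100578434, at 1049, 1017 and 1085 normalized reads in tunicamycin samples 2, 3 and 4, against 306, 262 and 370 in controls 1, 2 and 3. LOC411252 was similarly even, at 2303, 2287 and 2695 in tunicamycin samples 2, 3 and 4, against 726, 664 and 670 in controls 1, 2 and 3. In 4 members a tunicamycin sample lay more than 3-fold from the nearest other of its group (on the value + 1), and these were LOC724367, LOC411188, LOC102655941 and LOC100579026. In 3 members a control did so.

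Those 3 were LOC100578075, LOC551803 and LOC411315. LOC100578075 held 192, 155 and 167 normalized reads in tunicamycin samples 2, 3 and 4, against 0, 96.8 and 0 in controls 1, 2 and 3. Reads were thus listed in 1 control and in every tunicamycin sample. Control 2 alone made up the control mean and held the difference down to 2.37, since the other controls were at 0. LOC551803 held 133, 282 and 128 in tunicamycin samples 2, 3 and 4, against 9.999, 12.1 and 75.8 in controls 1, 2 and 3, with control 3 as the high one. Its difference of 2.44 was 3.92 without that control. LOC411315 held 630, 746 and 367 in tunicamycin samples 2, 3 and 4, against 134, 177 and 27.2 in controls 1, 2 and 3, with control 3 as the low one.

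The members nearest to the thresholds were as follows. On the difference, LOC410154 (1.51), LOC410890 (1.52) and LOC100579026 (1.53) lay just inside, and LOC552459 (1.48), LOC412318 (1.47) and LOC551493 (1.47) just outside. On the mean of the 6 values, LOC100578075 (102), LOC102655941 (102) and LOC551803 (107) lay just inside, and LOC408447 (82.6), LOC102655377 (82.1) and LOC107964439 (68.3) just outside. On the separation of the groups, the lowest tunicamycin value of LOC100579026 was 1.02 times the highest control, that of LOC727028 1.14 times and that of LOC406132 1.30 times. LOC100579026 held 105, 377 and 112 normalized reads in tunicamycin samples 2, 3 and 4, against 46.0, 102 and 55.4 in controls 1, 2 and 3, and its difference was 0.67 without tunicamycin sample 3. Just outside on separation were LOC725280 at 0.932 times, LOC102655932 at 0.926 times and LOC551562 at 0.735 times. LOC727028 held 140, 88.8 and 390 normalized reads in tunicamycin samples 2, 3 and 4, against 56.995, 31.6 and 77.7 in controls 1, 2 and 3. In all, 92 LOC numbers met the rule but for a difference of 1 to under 1.5, 32 but for a mean under 100, and 12 but for groups that overlapped.

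Tunicamycin sample 4 was the highest of its group in most members. It was highest in 42 of 57 (73.7%), against 27.3% of the 7217 LOC numbers with a mean of at least 100. Tunicamycin sample 3 was highest in 9 members and tunicamycin sample 2 in 6. At the low end stood tunicamycin sample 3 in 28 members, tunicamycin sample 2 in 25 and tunicamycin sample 4 in 4. The 92 genes with a difference of 1 to under 1.5 had the same leader, tunicamycin sample 4 in 58 of them (63.0%), so the order was not particular to the members. Members and these 92 genes were both picked on the values that give this order. The contrast with the 7217 genes is therefore a description, and how far the rule itself favours the order was not tested. In 7 members tunicamycin sample 4 held at least 2 times the mean of the others of its group.

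Among the controls, control 1 was the highest in 37 of 57 members (64.9%), against 47.1% of the 7217 genes. Control 2 was highest in 12 and control 3 in 8. Among the 92 genes with a difference of 1 to under 1.5, control 1 led in 62 (67.4%), so this order was not particular to the members either. It too was read in values that the rule had used. LOC552645 showed the pattern plainly, at 6425, 7122 and 8269 normalized reads in tunicamycin samples 2, 3 and 4, against 4124, 1496 and 1248 in controls 1, 2 and 3. Its difference was 1.67, and 2.41 without control 1. LOC409465 did too, at 3735, 4015 and 4445 in tunicamycin samples 2, 3 and 4, against 1180, 476 and 419 in controls 1, 2 and 3. Its difference was 2.55, and 3.18 without control 1.

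**Figure D3:**
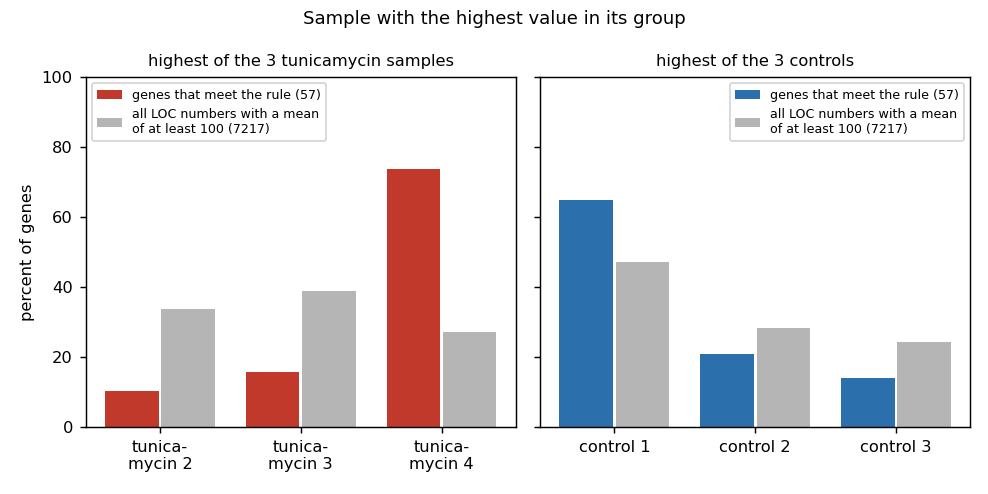
Bars give the percent of genes in which each sample holds the highest value of its group, for the tunicamycin samples (left) and the controls (right), in the 57 members (coloured) and in all 7217 LOC numbers with a mean of at least 100 (grey). Tunicamycin sample 4 leads in 73.7% of members and 27.3% of all genes, and control 1 in 64.9% of members and 47.1% of all genes. The members were picked on these same values.

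The deposited tables each hold a control and a tunicamycin sample. The median log2 difference of the members was 1.66 between tunicamycin sample 2 and control 1, 1.96 between tunicamycin sample 3 and control 2, and 2.38 between tunicamycin sample 4 and control 3. Of the 57 members, 23 were higher by at least 1.5 within every table, and 48 by at least 1. The smallest difference within a table was 0.53, in LOC107965491 between tunicamycin sample 3 and control 2, where the gene held 143 and 98.6 normalized reads.

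Values that the choice did not use could be read by leaving 1 sample out of the rule. The genes were chosen on 5 samples, and the sixth was then compared with the other group, whose values had entered the choice. Chosen without tunicamycin sample 2, 3 or 4, the rule gave 62, 61 and 50 genes, and the left-out sample lay above all 3 controls in 56, 58 and 43 of them. Those are 90.3%, 95.1% and 86.0%. Among all LOC numbers with a mean of at least 100 whose other 5 samples were separated in the same way, whatever the size of the difference, the shares were 71.4%, 59.3% and 86.6%. The share for tunicamycin sample 4 was thus no higher in the chosen genes than in that wider set. Without control 1, 2 or 3 the rule gave 86, 62 and 54 genes, and the left-out control lay below all 3 tunicamycin samples in 72, 54 and 50 of them. Those are 83.7%, 87.1% and 92.6%, against 54.6%, 76.1% and 84.5% of the genes separated in the other 5 samples. The chosen genes already differed by at least 1.5 in the other 5 samples, and the wider set had no such threshold. Part of any gap between these shares was therefore fixed by the rule, and the shares are a description.

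**Figure D4:**
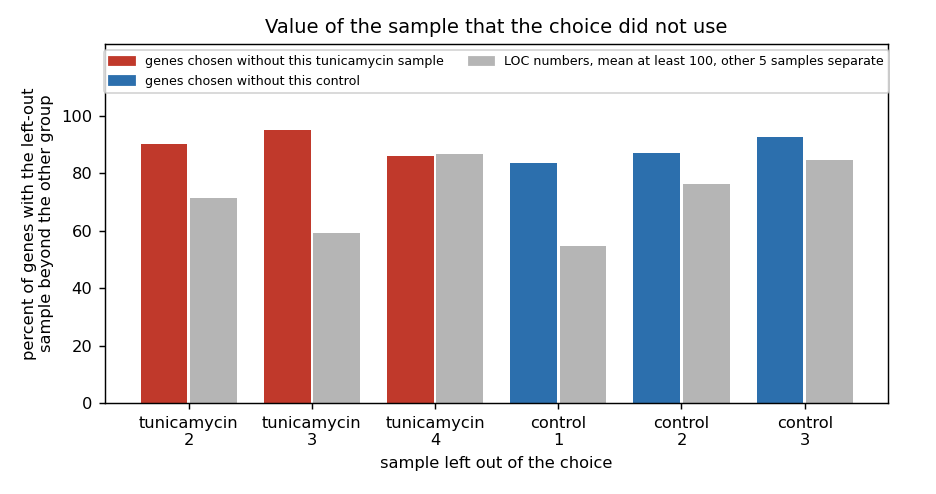
For each sample on the x axis the rule was applied to the other 5 samples, and the coloured bar gives the percent of the chosen genes in which the left-out sample lay beyond all samples of the other group. Coloured bars stand between 83.7% and 95.1%, and the grey bars, for all LOC numbers with a mean of at least 100 whose other 5 samples separate, between 54.6% and 86.6%. The grey set had no threshold on the difference, so part of any gap was fixed by the rule.

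The median log2 difference in the left-out sample was 1.70, 1.64 and 2.10 for tunicamycin samples 2, 3 and 4 over the mean of the controls. In the wider set, which had no threshold on the difference, the median was 0.34, 0.19 and 0.50. Over controls 1, 2 and 3 left out, the mean of the tunicamycin samples was higher by a median of 1.46, 1.99 and 2.11 in the chosen genes, and of 0.21, 0.39 and 0.45 in the wider set. The values of the other group had entered the choice each time, so part of the contrast with the wider set was fixed by the rule. Control 1 was the sample in which the chosen genes differed least. Leaving it out raised the number of genes that met the rule to 86, of which 54 were among the 57. Of the members, 36 met the rule without each of the 6 samples in turn. The other 21 were lost at least once, 14 of them without tunicamycin sample 4, and LOC100578075 without any 1 of the tunicamycin samples, through its mean.

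The reference annotation matched 53 of the 57 members. Of these 51 were protein-coding and 2 were long non-coding RNAs, LOC102654076 and LOC100578455. The share of protein-coding genes, 96.2%, was near the 96.6% of the 6944 matched LOC numbers with a mean of at least 100. LOC102655941, LOC100578075, LOC107965767 and LOC107965491 were not matched.

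Some members were neighbours in the annotation. A member stood next to another member in 6 of 53 cases (11.3%), where 0.955% of all 8905 placed LOC numbers had a member next to them. In 4 of the 6 the loci of the neighbours overlap, so that they may share reads, and 2 are neighbours with no overlap. Counting up to 2 places, 10 members formed 5 pairs, and the share of all placed LOC numbers this near to a member was not computed. LOC410087 and LOC724367, with 2 of the 3 largest differences, are separated by LOC724274, whose locus overlaps that of LOC410087. That gene held 5949, 5464 and 9853 normalized reads in tunicamycin samples 2, 3 and 4, against 3206, 2726 and 3384 in controls 1, 2 and 3, a difference of 1.19. It was thus also higher in every tunicamycin sample, but below the threshold of the rule.

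LOC100578881 and LOC406132 are next to each other with no overlap. LOC100578881 held 586, 347 and 778 normalized reads in tunicamycin samples 2, 3 and 4, against 139, 60.5 and 59.2 in controls 1, 2 and 3, a difference of 2.71. LOC406132 held 3189, 1846 and 4073 in tunicamycin samples 2, 3 and 4, against 1424, 601 and 511 in controls 1, 2 and 3, a difference of 1.84. The order of the samples was the same in both, with tunicamycin sample 4 and control 1 as the highest of their groups. LOC102654271 overlaps LOC411053, which averaged 9359 ± 1254 in tunicamycin samples and 2907 ± 900 in controls (mean ± SD, n = 3 each). The long non-coding LOC102654076 overlaps the protein-coding LOC724177, which held 6742, 3821 and 6886 in tunicamycin samples 2, 3 and 4, against 1772, 1319 and 1327 in controls 1, 2 and 3. The locus of LOC724177 also overlaps the ribosomal RNA genes LOC113219024 and LOC113219023, which were not measured. Their part in the values of these members was not tested. LOC100578434 and LOC552645 lie 2 places apart.

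**Figure D5:**
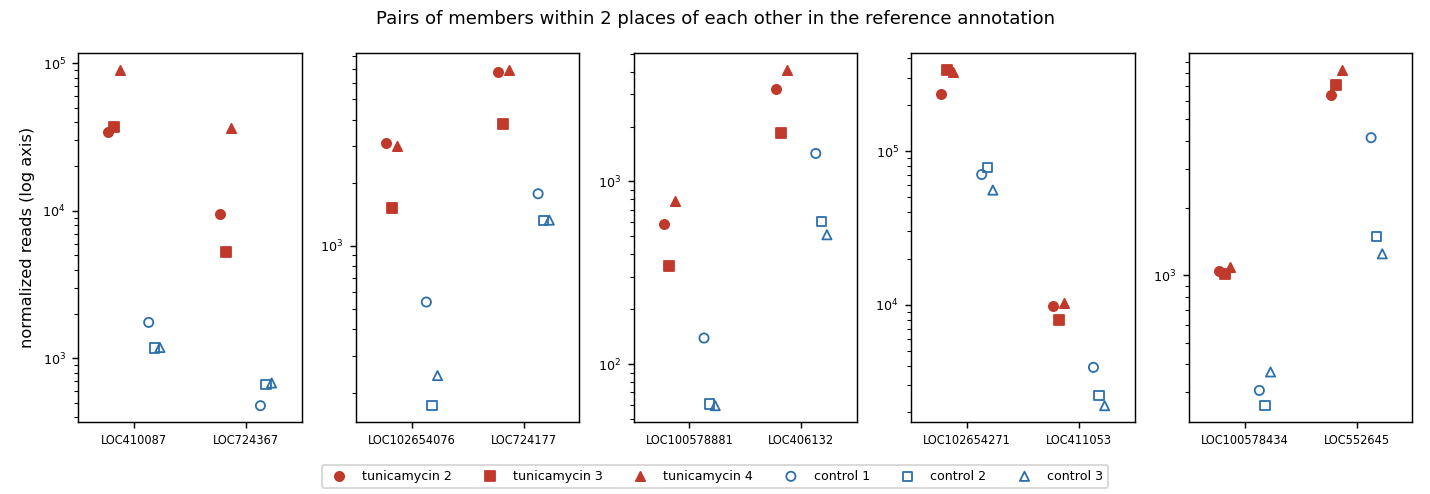
The 5 panels show the pairs of members at most 2 places apart in the annotation, with normalized reads (log axis, a scale of its own in each panel) in the 3 tunicamycin samples (filled red) and the 3 controls (open blue). In the pair of LOC100578881 and LOC406132, tunicamycin sample 4 and control 1 are the highest of their groups in both genes.

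Overlap was taken from the start and end of whole loci, introns included, and exons were not compared. Whether reads of overlapping loci could be told apart depends on the counting, whose strand setting the sources used here do not state. Of the 53 placed members, 19 overlap another gene of the tables, among them LOC410087, LOC102654271 and LOC102654076, so their values are uncertain to that extent. The share of all LOC numbers with such an overlap was not computed. Next to members stood 59 measured genes with a mean of at least 100 that were not members themselves. Their median difference was 0.15, and 5 of them (8.47%) had one of at least 1, against a median of -0.02 and 2.49% over the 7217 genes. Of the 5, 1 is Hsc70-3, which has a symbol, and LOC724274 and LOC724451 overlap a member. Among the 50 such neighbours that are LOC numbers and overlap no member, the median was 0.09 and 2 had a difference of at least 1, LOC102655896 and LOC410676 (4%).

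Genes with a symbol were outside the rule, and 3 of them would have met its thresholds. Hsc70-3, the ER chaperone BiP and a standard readout of the unfolded protein response, held 211942, 267564 and 317129 normalized reads in tunicamycin samples 2, 3 and 4, against 68417, 35140 and 25372 in controls 1, 2 and 3. It shared with most members the highest values in tunicamycin sample 4 and control 1. MsrA, which repairs oxidized methionine, held 4161, 7483 and 4565 in tunicamycin samples 2, 3 and 4, against 933, 686 and 528 in controls 1, 2 and 3. The silk gene Fibroin4 averaged 223 ± 135 in tunicamycin samples and 49.3 ± 16.2 in controls (mean ± SD, n = 3 each). Their differences of 2.63, 2.91 and 2.16 fall within the range of the members.

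Pathway genes could be matched by symbol alone, and 10 were found. The background over all 10013 genes, at a limma adjusted p under 0.05, was 1.06% higher (106 genes) and 0.0699% lower (7 genes) in tunicamycin. Of the 2 ER chaperones and folding enzymes matched, Hsc70-3 rose (log2 2.73, SE 0.40; limma adjusted p = 0.0279), and Ppib, the ER cyclophilin B, did not pass in limma (log2 0.67, SE 0.14; limma adjusted p = 0.0878). Of 3 amino acid and redox genes, MsrA rose (log2 2.90, SE 0.28; limma adjusted p = 0.00786). Cbs, which makes cystathionine from homocysteine, was at log2 0.58 (SE 0.12) and thioredoxin reductase Trxr-1 at log2 0.55 (SE 0.15), and neither passed in limma. DESeq2 on the recovered reads called Ppib, Cbs and Trxr-1 too, so that both ER genes and all 3 amino acid and redox genes passed there, while edgeR called Hsc70-3 and MsrA alone. The unadjusted limma p was under 0.05 for each of these 5 genes. None of the 2 N-glycosylation genes or the 3 cytosolic and mitochondrial chaperones passed in limma or edgeR, though Hsc70-5 had an unadjusted limma p under 0.05 and passed in DESeq2. STT3B, of the enzyme that transfers the sugar chain, was at log2 0.20 (SE 0.16), and Gfat2, which makes a precursor of the sugars, at log2 -0.20 (SE 0.34). Mitochondrial Hsc70-5 was at log2 0.89 (SE 0.19), and the cytosolic Hsc70-4 and Hsp90 at log2 0.19 (SE 0.24) and -0.21 (SE 0.43). Gfat2 and Hsp90 changed sign without control 1. No sensor or regulator of the unfolded protein response and no gene of ER degradation and translocation was matched. The call of Hsc70-3 was lost in limma when any sample other than control 1 was left out (adjusted p from 0.0671 to 0.135) and with a replicate block by deposited table (limma adjusted p = 0.101). That of MsrA was kept in all 6 fits without 1 sample and with that block (limma adjusted p = 0.0302).

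Markers of the tissue and of other cells were measured beside these values. In bulk midgut, fewer cells of a type and less RNA per cell cannot be told apart. The 3 alpha-glucosidases of the midgut, which split dietary sugars, were present in every sample, and their summed reads were 1161820, 1302930 and 701920 in tunicamycin samples 2, 3 and 4, against 1103660, 1320470 and 1592450 in controls 1, 2 and 3. Tunicamycin sample 4, highest in most members, was thus the lowest of all samples in these enzymes, and the part of this in the members' values was not tested. The 7 troponin genes of visceral muscle summed to between 6388 and 8487 in tunicamycin samples and between 5014 and 8410 in controls, with control 1 the lowest. The 6 fat body and gland genes summed to between 1412 and 1891 in tunicamycin samples and between 1475 and 2458 in controls. The 3 enteroendocrine and neuronal genes summed to between 709 and 1118 in tunicamycin samples and between 619 and 750 in controls, and the hemocyte gene PPO lay between 42.5 and 67.9 in tunicamycin samples and between 59.6 and 71.9 in controls. No marker gene was at 0 in all samples, and the ranges of the summed reads of the groups overlapped for each list. Within the lists, every tunicamycin sample lay below every control in Hbg3, Hex70a and TpnCIIIb, and no marker gene showed the reverse. Among LOC numbers with a mean of at least 100, 12.6% lay below in this way and 11.9% above. Of the 20 marker genes 0 passed in limma or edgeR, 3 had an unadjusted limma p under 0.05, and DESeq2 called 1, the alpha-glucosidase Hbg3, lower in tunicamycin. Their part in the members' values was not tested.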

How the data were processed

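The authors deposited 3 tables, each with 1 control and 1 tunicamycin sample and the same 10013 genes. What the authors deposited is a normalized signal, read numbers per gene over 1 size factor a sample. This follows from the values, of which 100% in every column gave whole reads within 0.001 of a read. Each sample had the same median ratio, 1.0030, to the genes' geometric means, so the tables share 1 scaling. The tools listed, per the submitters' processing notes, are DESeq2, STAR, Subread and Trimmomatic 0.36, and their roles, the build and the strand setting were not given in the sources used here.

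The members, gene lists and thresholds were chosen with earlier results of these data known. Named are the 10 members with the largest difference, the 10 with the most reads in tunicamycin, those beside each threshold, those with a sample over 3-fold apart, neighbours, and up to 4 genes per list; further members that illustrate a pattern were chosen after their values were seen. Since the values were normalized, the test over all genes was limma-trend, run in R 4.3.3 with limma 3.58.1. It took log2(value + 1) as input, with the group as sole term and Benjamini-Hochberg adjustment; it understates changes of low genes. Alternatives used edgeR 4.0.16 and DESeq2 1.42.0 on the recovered reads. The limma step was tested on simulated counts. These had the same dispersion (spread between samples) in every gene and no sample set apart, unlike the data, so the test does not cover such samples. Neighbours come from RefSeq's Amel_HAv3.1 table; order and overlap of loci were computed from its coordinates, matched by identifier, and since the build of the tables is not given, no coordinates are printed. Promoter and protein sequences were not analysed here.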

Additional observations from a re-analysis of the deposited data

How the results depend on the processing

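The number of genes that met the rule was 149 with a difference of at least 1 and 25 with at least 2; it was 66 and 46 with a mean of at least 50 and 200, and stayed at 57, the same genes, with a pseudocount of 0.1 or TMM scaling. With the replicate block by deposited table, a difference of at least 1.5 in each table, it was 23. With 1 sample left out it ranged from 50 to 86, the highest without control 1, and without both control 1 and tunicamycin sample 3, chosen after seeing the data, it was 99, with 52 of the 57. Over 513 alternatives for the members' differences, 9 moved by more than 1 SD and 0 changed sign, a direction that the rule nearly fixes.

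In limma 113 genes were called, against 94 by edgeR and 516 by DESeq2 on the recovered reads. The cause was not tested. Leaving out 1 sample gave 20 to 202 limma calls, the most without control 1 and the fewest without control 3. The filter on a mean of at least 1 removed no gene. Correlations of deviations from the group means were 0.05, 0.15 and 0.05 within tables and -0.12 and -0.10 between samples of 1 number. Between samples that shared neither, they ran from -0.04 to 0.06. These correlations do not settle whether samples were paired. The labels do not say that the replicate numbers pair samples, so the main fit had no block and the blocks were alternatives. Limma called 44 genes with the replicate block by table and 4 with the replicate block by shared number, where 1054 had an unadjusted p under 0.05. Of the 10 list genes 2 were called, 6 by DESeq2, 1 and 0 with those blocks (Hsc70-3 was lost with both, MsrA with the second), and 1 to 3 with 1 sample left out. Gfat2 (log2 -0.20) and Hsp90 (log2 -0.21) changed sign, to 0.25 and 0.24 with the replicate block by shared number, and ranged from -0.47 to 0.17 and from -0.65 to 0.28 with 1 sample left out. Alternatives on promoters and proteins were not run. At low read numbers, as in LOC552096, counting error limits the values.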
